A study of Mus musculus with 9 samples.

Results

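Genes for splicing factors and heterogeneous nuclear ribonucleoproteins (hnRNPs) were examined in tail skin of mice. They were taken by symbol from the array's annotation, as the SR proteins (Srsf), the hnRNPs (Hnrnp), the SF3a and SF3b subunits (Sf3), the small nuclear ribonucleoprotein (snRNP) proteins (Snrp), the pre-mRNA processing factors (Prpf), U2af, the Sm-like proteins (Lsm) and the numbered RNA-binding motif proteins (Rbm). Of 10554 named genes on the array, 93 belonged to these 8 families. Of the 8644 genes with a value on all 9 arrays, 90 were members. Prpf19, Rbm12b1 and Rbm34 had no clone with a value on every array and were not tested. A further 17 features carry the name of a member together with another gene, such as Snurf and Snrpn, and were not used.

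All mice were female SKH-1 hairless mice, 3 weeks of age at surgery. Lymphedema mice had the tail skin incised around its circumference and the large lymphatic trunks cauterized, sham mice had the incision and the dye injection without cautery, and normal mice had no surgery. Skin from the distal tail was taken on day 14 and pooled from 3 mice, with 3 pools for each state. Each pool was hybridized once to a 2-color cDNA array against RNA of whole embryos late in gestation, so that n = 3 pools in every group. Values below are log2 ratios of tail skin over embryo reference, centered on the median of each array and averaged over the clones of a gene. Such a value is called the level, and a level below 0 means less of the RNA, relative to the array's median, in tail skin than in the embryo.

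Nuclear pre-mRNA is spliced by snRNPs, in which small RNAs carry rings of Sm or Sm-like proteins. SR proteins mostly promote the use of nearby exons, hnRNPs coat nascent transcripts and often repress exons, and U2af and SF3b define the acceptor site. Proliferating and embryonic tissues are rich in this machinery. In skin it serves keratinocytes, fibroblasts and infiltrating leukocytes alike, so the families name no single cell type.

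Several facts of the arrays bear on every value. Between 1.34% and 12.6% of values were missing on an array. Labels and methods give opposite dyes for skin and reference. As deposited, a list of embryonic genes had medians between 2.80 and 3.68 on the 9 arrays, with 31 to 33 of 32 or 33 genes above the array's median, while a list of epidermal genes of adult skin had medians between −2.61 and −1.89, with 16 to 18 of 19 or 20 genes below it. The ratio was on this ground taken as embryo over skin, and the sign was turned. With the sign so turned, keratinocyte genes had median levels of 2.12 to 2.80 on the 9 arrays. These genes are part of the adult skin list that set the sign, so their levels are no separate check of the labelled tissue. The log base is not stated and was read as 2. Missing values divided the arrays into 2 sets, lymphedema 1 with the 3 normal arrays and the other 5 arrays, with 186 features present in the first set and absent from the second. This was the highest count among the 126 divisions into sets of these sizes, and the next highest was 45. The reverse pattern was found for 1 feature. Sets of other sizes were not searched. The 2 sets are called slide sets here. The name stands only for this pattern of missing values, since neither labels nor methods give slides or batches. Levels also moved with the number of the feature in the file. Over runs of 4000 feature numbers, the median level of all features in normal skin lay between −0.37 and 0.40, and the median of lymphedema minus normal between −0.11 and 0.54, lowest in the first run and highest in the last. Each key value is therefore given also after local centering, in which each array was centered within runs of 1000 feature numbers, a choice made after this trend was seen.

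**Figure D1:**
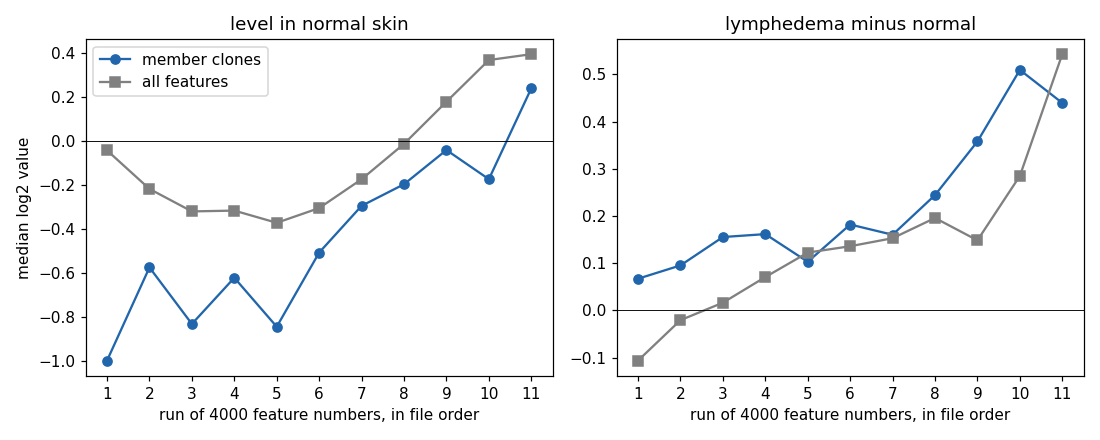
Median level in normal skin (left) and median log2 difference of lymphedema minus normal (right) for each run of 4000 feature numbers, for clones of the members (circles) and all features with a value on every array (squares). Both medians of all features end highest in the last run, at 0.40 and 0.54, and the level of the members' clones is below that of all features in every run.

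Splicing genes were lower in tail skin than in the embryo reference in all 3 states. In normal skin 77 of the 90 members had a level below 0, or 85.6%, against 55.1% of all genes. The median level of the members was −0.30, −0.15 and −0.24 on the lymphedema arrays, −0.26, −0.29 and −0.42 on the sham arrays, and −0.35, −0.40 and −0.49 on the normal arrays. Over all genes these medians lay between −0.11 and −0.0098. Lymphedema arrays had the least negative group average, −0.23 ± 0.075, against −0.32 ± 0.085 in sham and −0.42 ± 0.073 in normal skin (SD, n = 3 each), and the highest sham array exceeded the lowest lymphedema array. On all 9 arrays 41 members were below 0 and 7 were above it. After local centering 74 of 90 members, or 82.2%, were below 0 in normal skin, against 54.9% of all genes. Since RNA of whole skin was measured, fewer cells of a type and less RNA per cell cannot be told apart.

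**Figure D2:**
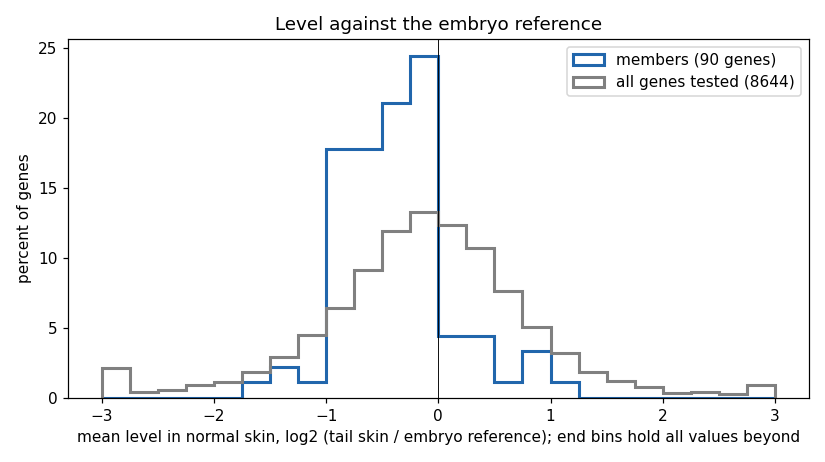
Distribution of the mean level in normal skin (x axis, log2 of tail skin over embryo reference, in bins) as a percent of genes (y axis) for the 90 members and all 8644 genes. The members lie mostly between −1 and 0, and 77 of 90 are below 0.

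The hnRNPs lay lowest. All 18 were below 0 in lymphedema and in sham skin, and 17 of 18 in normal skin, where their median was −0.76. Hnrnpc, which binds uridine tracts in nascent transcripts, had the lowest level of any member in normal skin, −1.72 ± 0.11 (SD, n = 3). It was followed by Hnrnpa2b1, which binds RNA in the nucleus and sorts transcripts for transport, at −1.44 ± 0.14, by Prpf39, a U1 snRNP-associated factor, at −1.43 ± 0.043, by Hnrnpr at −1.01 ± 0.14, and by Lsm6, of the ring on U6 RNA, at −0.95 ± 0.18. Hnrnpa2b1 and Prpf39 did not differ beyond their spread, nor did Hnrnpr and Lsm6. After local centering Prpf39 was at −1.18, Lsm6 at −0.98 and Hnrnpr at −0.79. Rbm5, at −1.04, and Hnrnph1, at −1.02, were then below Lsm6 and Hnrnpr. The hnRNP median in normal skin was −0.70 with this centering.

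A few members were above the embryo. Rbm3, a cold-induced RNA-binding protein, had 1.19, 1.72 and 1.47 in lymphedema, 1.55, 1.37 and 1.14 in sham, and 1.07, 1.24 and 0.93 in normal skin. All 9 values of Rbm3 were thus well above 0, and the groups overlapped. Prpf3, a protein of the U4/U6 snRNP, averaged 0.97 ± 0.17 in normal skin, and Rbm47, an RNA-binding cofactor of mRNA editing, 0.83 ± 0.028 (SD, n = 3). Rbm27 averaged 0.82 ± 0.89, and its high value came from 1 array, normal 1, at 1.84 against 0.35 and 0.26 on the others. Rbm28 averaged 0.56 ± 0.35. The normal arrays of Rbm3 lay above all those of Rbm47 and Rbm28, and every other pair of these 5 overlapped. After local centering Rbm3 was at 0.95, Prpf3 at 0.79, Rbm27 at 0.68, Rbm47 at 0.61 and Rbm28 at 0.38. Rbm28 was then below Hnrnpul1, at 0.46. The families other than the hnRNPs had medians between −0.49 for U2af, with all 3 below 0, and −0.20 for Prpf, with 7 of 10 below 0. All 10 Lsm proteins were below 0, with a median of −0.43, and 17 of 23 Rbm proteins, with a median of −0.33. After local centering the family medians in normal skin were −0.41 for Srsf, −0.36 for Snrp, −0.32 for Sf3 and −0.26 for Lsm. They were −0.25 for Rbm, −0.21 for U2af and −0.046 for Prpf, the last above the −0.086 of all genes.

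Lymphedema against normal skin compares mice with incision and lymphatic cautery to mice without surgery, so it does not separate lymph stasis from the surgery. The median difference of the members was slightly above that of all genes, and 1 of 90 passed the test. That gene was Lsm10, of the U7 snRNP that processes histone pre-mRNA, and no member was lower past the threshold. Over all genes 2.83% passed as higher and 0.602% as lower (Benjamini-Hochberg adjusted p under 0.05 from limma over 8644 genes), so that the members' share of calls was not above the background. The difference was above 0 in 70 of 90 members, with a median of 0.17 on the log2 scale, against 61.9% of all genes and a median of 0.10. At an unadjusted p under 0.05, 12 members were higher, while the background was 14.8%, and 0 were lower, with 5.71% in the background. Arrays of the 2 groups did not overlap, with lymphedema higher, for 30 members, against 23.6% of all genes, and with lymphedema lower only for Srsf6, against 10.2%. By significance analysis of microarrays (SAM) at a false discovery rate of 5%, 14 members were higher, or 15.6%, against 16.4% of all genes. After local centering 3 members passed as higher, namely Lsm10, Hnrnpc and Hnrnpa1 (background 4.32%), 0 passed as lower (1.47%), and 75 of 90 differences were above 0 (59.7% of all genes), with a median of 0.15 against 0.072 for all genes. The 12 members with an unadjusted p under 0.05 are described below; those that the naming rule did not choose are Hnrnpc, Hnrnpa2b1, Lsm3, Lsm6, Lsm7 and Snrpg for this comparison, and they were added after their values were seen, as were Hnrnpul1, Srsf6, Rbm33 and Lsm14a.

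**Figure D3:**
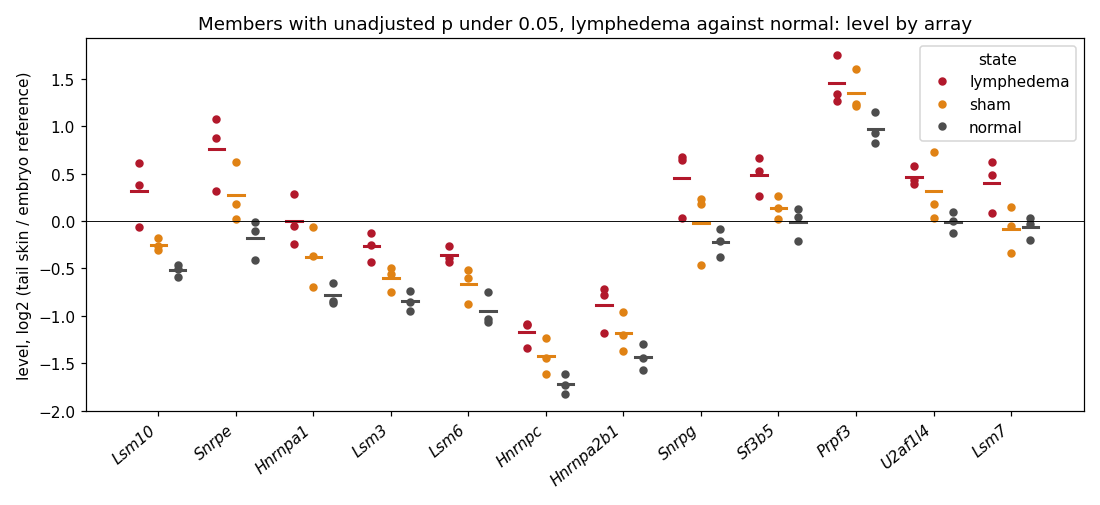
Level on each array (y axis, log2 of tail skin over embryo reference) of the 12 members with an unadjusted p under 0.05 for lymphedema against normal, ordered by that p, with points for the 3 pools of lymphedema, sham and normal skin and bars for the group means. In each of the 12 the lymphedema points lie above all normal points, as the choice of genes by this comparison favors.

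The Sm-like proteins had the highest family median, 0.43. Lsm10 had levels of 0.38, 0.61 and −0.06 on the lymphedema arrays, −0.30, −0.26 and −0.18 on the sham arrays, and −0.51, −0.46 and −0.59 on the normal arrays. Every lymphedema array was above every sham array, and every sham array above every normal array. The difference of lymphedema minus normal was 0.83 (standard error 0.190, n = 3 pools each, adjusted p = 0.0399 from limma), a 1.78-fold higher ratio. It was 0.87 after local centering (adjusted p = 0.0206), and its 2 clones gave 0.78 and 0.88. The call was lost when the slide set was fitted as a block (0.90, adjusted p = 0.300 from limma), where it rests on lymphedema 1. It was also lost with any normal array left out (adjusted p of 0.125 to 0.130) and without lymphedema 1 (0.120), lymphedema 2 (0.182) or sham 2 (0.0534).

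Lsm3, Lsm6 and Lsm7 belong to the rings that bind U6 RNA in the nucleus and decapping complexes in the cytoplasm. Lsm3 had −0.12, −0.43 and −0.26 in lymphedema, −0.74, −0.56 and −0.49 in sham, and −0.95, −0.73 and −0.85 in normal skin. Its lymphedema arrays were above all others, by 0.58 against normal (standard error 0.167, adjusted p = 0.0833 from limma). Lsm6 had −0.27, −0.43 and −0.39 in lymphedema, −0.52, −0.61 and −0.88 in sham, and −1.03, −1.07 and −0.75 in normal skin, and likewise its lymphedema arrays lay above the rest. Its difference was 0.59 (adjusted p = 0.0888). Lsm7 differed by 0.46 (adjusted p = 0.217), with 0.48, 0.62 and 0.09 in lymphedema and −0.20, 0.04 and −0.03 in normal skin, which do not overlap. After local centering the differences were 0.35, 0.33 and 0.31 for Lsm3, Lsm6 and Lsm7, with adjusted p of 0.172, 0.152 and 0.190. Of the 10 Lsm genes, Lsm14a alone had a difference below 0, −0.088.

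All 11 Snrp genes, which encode proteins of the Sm ring and of single snRNPs, had a difference above 0, from 0.037 to 0.93, and 0 passed the test. Snrpe, a protein of the Sm ring, had 1.07, 0.88 and 0.32 in lymphedema, 0.02, 0.62 and 0.17 in sham, and −0.41, −0.11 and −0.01 in normal skin. Its 3 lymphedema arrays were above its 3 normal arrays, and lymphedema 3 lay below sham 2. The difference was 0.93 (standard error 0.237, adjusted p = 0.0589 from limma). This gene had 1 clone, and after local centering its difference was 0.35 (adjusted p = 0.178). Snrpg, another protein of that ring, had 0.67, 0.65 and 0.03 in lymphedema, 0.23, 0.18 and −0.46 in sham, and −0.38, −0.22 and −0.09 in normal skin, so lymphedema 3 was just above the normal arrays. Snrpg differed by 0.68 (adjusted p = 0.140) and by 0.46 after local centering (adjusted p = 0.0731). After local centering 10 of the 11 Snrp genes had a difference above 0, with a median of 0.16.

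Among the hnRNPs 14 of 18 differences were above 0, with a median of 0.24 that stayed at 0.22 after local centering. Hnrnpa1, which binds exonic and intronic silencers, had −0.05, 0.29 and −0.25 in lymphedema, −0.07, −0.37 and −0.70 in sham, and −0.86, −0.84 and −0.65 in normal skin. Lymphedema and normal arrays of Hnrnpa1 did not overlap, and the sham arrays overlapped both. The difference was 0.78 (standard error 0.208, adjusted p = 0.0676 from limma), and 0.59 after local centering (adjusted p = 0.0444). Hnrnpc had −1.34, −1.09 and −1.09 in lymphedema, −1.45, −1.61 and −1.23 in sham, and −1.61, −1.83 and −1.73 in normal skin. The lymphedema arrays of Hnrnpc were all above its normal arrays, by 0.55 (standard error 0.172, adjusted p = 0.105), and by 0.61 after local centering (adjusted p = 0.0284). Hnrnpa2b1 had −0.78, −0.72 and −1.18 in lymphedema, −1.21, −0.96 and −1.38 in sham, and −1.45, −1.58 and −1.30 in normal skin, a difference of 0.55 (adjusted p = 0.134), or 0.42 after local centering (adjusted p = 0.140). These 3 genes were below the embryo in normal skin and less so in lymphedema. At the other end Hnrnpul1 had a difference of −0.39 (adjusted p = 0.511), with overlapping arrays, the lowest of any member.

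Sequences upstream of the start are shown for the members that passed with either centering and for Hnrnpa2b1, which passed with neither and was chosen after its motifs were seen. RefSeq promoters of build GRCm38.p6 were matched for 77 of the 90 members, with the first listed start where a gene had several, and the 250 bases before the start were searched on both strands for 7 motifs. Each line has the 120 bases before the start, 5′ to 3′ on the gene's strand, with motif matches in capitals.
Lsm10: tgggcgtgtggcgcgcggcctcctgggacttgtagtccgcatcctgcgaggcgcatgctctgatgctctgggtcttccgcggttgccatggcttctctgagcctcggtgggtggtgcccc
Hnrnpa1: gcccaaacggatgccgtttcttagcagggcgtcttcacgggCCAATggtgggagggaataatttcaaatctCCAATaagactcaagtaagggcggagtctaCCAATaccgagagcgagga
Hnrnpc: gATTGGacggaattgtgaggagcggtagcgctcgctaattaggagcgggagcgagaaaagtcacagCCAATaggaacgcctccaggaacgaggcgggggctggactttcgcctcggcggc
Hnrnpa2b1: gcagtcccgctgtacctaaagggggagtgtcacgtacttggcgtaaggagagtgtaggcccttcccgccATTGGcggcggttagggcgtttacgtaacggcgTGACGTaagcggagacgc
These are chr4:126096533-126096652 on the plus strand, chr15:103240277-103240396 on the plus strand, chr14:52104022-52104141 on the minus strand and chr6:51469895-51470014 on the minus strand.

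The CCAAT box (CCAAT, or its complement ATTGG) was found at 3 places in the stretch of Hnrnpa1, at 2 in that of Hnrnpc and at 1 in that of Hnrnpa2b1, which also had the CRE core TGACGT. None of the 7 motifs was found in the 120 bases of Lsm10, which says only that these letters are not in this window, nor in those of Hnrnpu and Hnrnpdl. In the 250 bases, CCAAT was in 37 of 77 member promoters, or 48.1%, against 36.5% of the promoters of all tested genes that were matched and 34.5% of all promoters. TGACGT was in 16.9% of member promoters, against 9.95% of those of tested genes. The ETS motif CCGGAAG was in 19.5% against 13.8%, and the NRF1 motif in 13.0% against 8.30%. TATAAA was in 7.79% against 7.82%, CACGTG in 7.79% against 8.18% and the YY1 motif AAGATGG in 2.60% against 4.55%. A match is a description of the letters and was not tested as a binding site.

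Among the components of acceptor site recognition, all 8 Sf3 genes and all 3 U2af genes were above 0, with medians of 0.19 and 0.36, and 0 passed. Sf3b5, a small subunit of SF3b, had 0.53, 0.66 and 0.26 in lymphedema and −0.21, 0.12 and 0.05 in normal skin, which do not overlap. Its difference was 0.50 (standard error 0.178, adjusted p = 0.143 from limma). U2af1l4, a relative of the small U2af subunit, differed by 0.48 (adjusted p = 0.207), and Prpf3 by 0.49 (adjusted p = 0.193). After local centering the differences were 0.32 for Sf3b5, 0.21 for U2af1l4 and 0.22 for Prpf3. The Prpf family had a median of 0.21, or 0.12 after local centering.

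Of 7 Srsf genes 4 had a difference above 0, with a median of 0.15, and 6 did after local centering, with a median of 0.093. Srsf3, the smallest SR protein, had −0.65, −0.39 and −0.56 in lymphedema, −0.57, −0.37 and −0.64 in sham, and −0.93, −0.79 and −0.92 in normal skin. Lymphedema and sham arrays overlapped, and both lay above the normal arrays, by 0.34 for lymphedema (adjusted p = 0.262 from limma). Srsf6 ran the other way, with −0.04, −0.08 and −0.16 in lymphedema against 0.02, 0.41 and −0.02 in normal skin, a difference of −0.23 (adjusted p = 0.511). Local centering gave Srsf6 a difference of −0.20, and its lymphedema and normal arrays then overlapped. The 23 Rbm genes were centered near 0, with a median of 0.011 and 13 above 0, or 0.067 and 16 after local centering. Rbm43 had the smallest p of them, with a difference of 0.43 (adjusted p = 0.257), and Rbm33 the lowest difference, −0.30 (adjusted p = 0.526).

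**Figure D4:**
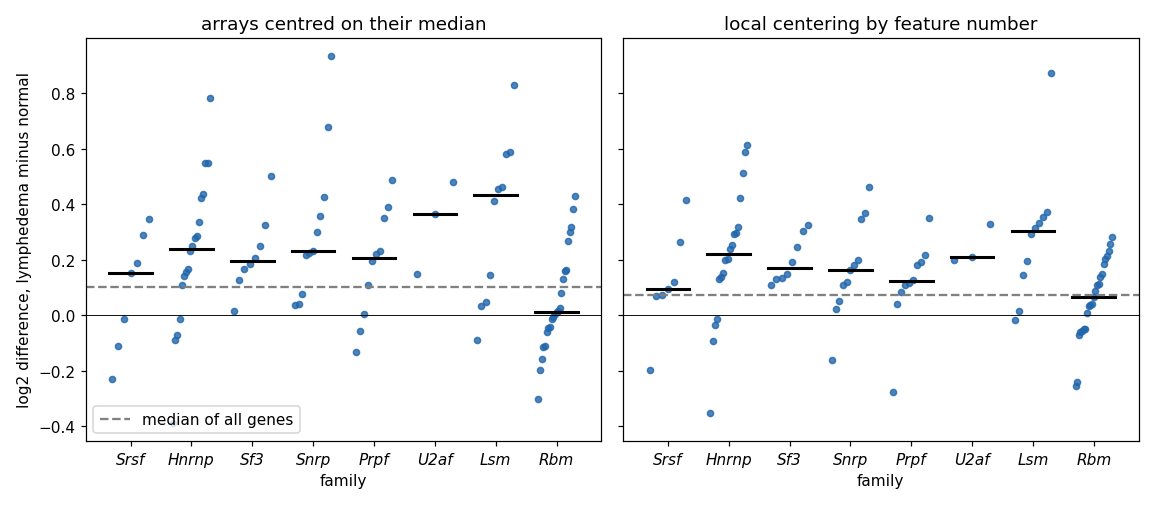
Log2 difference of lymphedema minus normal (y axis) for each of the 90 members by family, with arrays centered on their median (left) and after local centering (right). Points are genes in order of size, black bars are family medians and dashed lines are the medians of all genes, 0.10 and 0.072; the Lsm bar is at 0.43 and 0.30 and the Rbm bar at 0.011 and 0.067.

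Clones of 1 gene did not always agree. Of the 64 members with 2 or more clones, 35 had clones of 1 sign in lymphedema against normal, and 37 after local centering. All 7 clones of Hnrnpc were positive, from 0.35 to 0.77, as were the 8 clones of Srsf3, from 0.067 to 0.66, and the 4 of Hnrnpa1, from 0.34 to 1.09. Clone 35876 of Hnrnpa1, named after its values were seen, passed on its own. It had a difference of 1.02 (standard error 0.230, adjusted p = 0.0282 from limma over 30702 features). The call was kept in 9 of 16 alternatives and lost in 7, with the slide set fitted as a block (1.25, adjusted p = 0.172) and with any lymphedema or normal array left out (adjusted p of 0.0516 to 0.118). Hnrnpa2b1 had clones from −0.084 to 0.94, which all were positive after local centering, from 0.044 to 0.80. With local centering clone 35876 still passed (0.87, adjusted p = 0.0153 from limma), as did both clones of Lsm10. Single clones of Hnrnpa2b1, Hnrnpd, Lsm12 and Srsf3 and clones 95 and 12474 of Hnrnpc then passed too, all higher in lymphedema. They were likewise named after their values were seen. The share of all features that pass is not given here, so clone calls were not compared with it.

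Hnrnpu, also called scaffold attachment factor A, held the sharpest disagreement. Averaged over 7 clones it had a difference of −0.013 (standard error 0.163, adjusted p = 0.976 from limma). Its clone 16950 had 0.05, −1.03 and −0.51 in lymphedema, 0.06, 0.61 and 0.63 in sham, and 0.96, 0.82 and 0.78 in normal skin. This clone was lower on every lymphedema array than on every sham or normal array, with a difference of −1.35 (standard error 0.280, adjusted p = 0.0201), and −1.22 after local centering (adjusted p = 0.0235). The call was kept in 11 of 16 alternatives and lost in 5, with the slide set fitted as a block (−0.80, adjusted p = 0.425), without lymphedema 2 (−1.08, adjusted p = 0.130) and without normal 1, normal 2 or normal 3 (adjusted p of 0.0531 to 0.0893). The other 6 clones had differences from −0.00033 to 0.44. Their levels in normal skin were also of the other sign, from −1.33 upwards and all below 0, against 0.85 for clone 16950. Which transcript the clone reports was not tested.

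**Figure D5:**
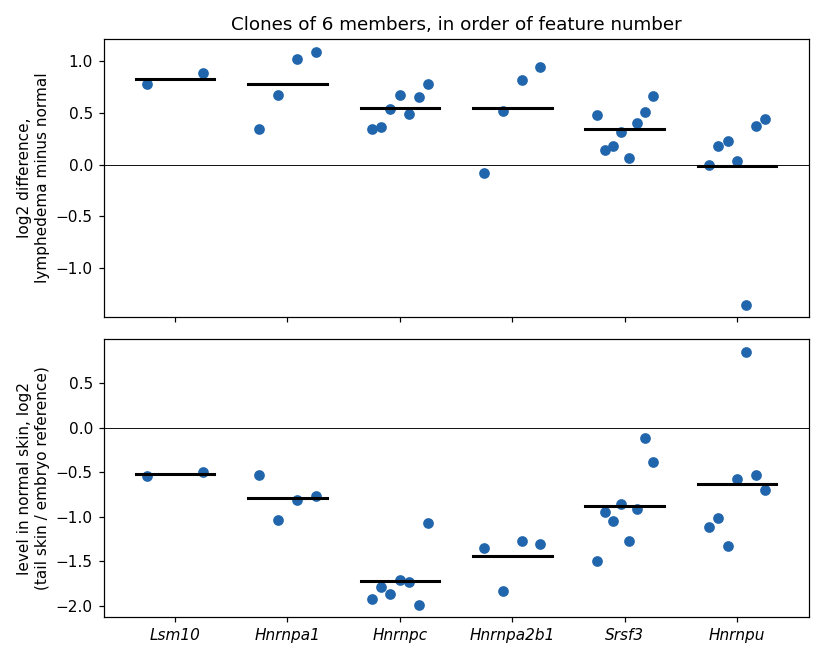
Log2 difference of lymphedema minus normal (top) and mean level in normal skin (bottom) of each clone of 6 members, ordered within a gene by feature number, with bars for the mean over clones. Clone 16950 of Hnrnpu stands alone at −1.35 and 0.85, while the 7 clones of Hnrnpc are all positive at the top and negative at the bottom.

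Sham against normal skin asks what the incision and the dye injection did together. No member passed, nor did any of the 8644 genes (background 0%, limma). At an unadjusted p under 0.05, 1 member was higher and 0 were lower (5.54% and 2.38% of all genes). That member was Hnrnph1, which binds runs of guanines, at −0.75, −0.41 and 0.41 in sham and −0.86, −1.14 and −0.75 in normal skin, a difference of 0.66 (adjusted p = 0.549). Its sham arrays overlap the normal arrays by a narrow margin, and the difference was 0.33 without sham 3. U2af1, which reads the acceptor dinucleotide, differed by 0.36 (adjusted p = 0.627) and Srsf3 by 0.35 (adjusted p = 0.634), both without overlap of the arrays. Such separation, with sham higher, was found for 10 members (9.72% of all genes), and with sham lower for 0 (3.09%). The difference was above 0 in 61 of 90 members (59.6% of all genes). The median over the members was 0.073, against 0.058 over all genes, and it was 0.034 without normal 3. The members with an unadjusted p under 0.05 from limma changed with local centering. Srsf3, Hnrnpk, Hnrnpc and U2af1 were then higher and Rbm26 lower. Srsf3 differed by 0.41 (adjusted p = 0.408), Rbm26 by −0.33 (adjusted p = 0.502) and Hnrnph1 by 0.63 (adjusted p = 0.526). All 3 sham arrays are in one slide set and all 3 normal arrays in the other, so within a set these states cannot be compared directly.

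Lymphedema against sham skin asks what the lymphatic ablation added. No member passed, against 0.0116% of all genes in each direction, and by limma 3 members were higher and 0 lower at an unadjusted p under 0.05 (4.59% and 2.85% of all genes). Lsm10 was higher by 0.56 (adjusted p = 0.533), Lsm7 by 0.48 (adjusted p = 0.648) and Rbm43 by 0.45 (adjusted p = 0.668). Arrays of the groups did not overlap for Lsm10 and Rbm43, and sham 1 overlapped for Lsm7. In all, 5 members were separated with lymphedema higher (6.63% of all genes) and 2 with lymphedema lower (3.69%). The difference was above 0 in 66 of 90 members, against 58.9% of all genes, with medians of 0.11 and 0.058, and the members' median was 0.064 without sham 3. Under local centering the smallest p was that of Prpf4, which was lower, at −0.52 (adjusted p = 0.240 from limma). Lsm10 was then higher by 0.60 (adjusted p = 0.245), Lsm7 by 0.46 (adjusted p = 0.273) and Snrpg by 0.45 (adjusted p = 0.280). Rbm43, Hnrnpa1 and Rbm26 were also higher at an unadjusted p under 0.05. Over the 3 states together, a moderated F test from limma passed 0 members (background 0.335%). The group means followed the ascending order normal, sham, lymphedema in 45 of 90 members, or 50%, against 35.1% of all genes. The opposite order was found in 8 members, against 16.5% of all genes. These comparisons share arrays.

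Lymphedema could be compared with another state inside each slide set. Lymphedema 1 minus the normal arrays had a median of 0.090 over the members, with 55 of 90 above 0, or 61.1%, against 0.077 and 57.5% for all genes. Lymphedema 2 and 3 minus the sham arrays had a median of 0.16, with 70 of 90 above 0, or 77.8%, against 0.070 and 59.0% for all genes. Lsm10 was 0.90 in the first comparison and 0.53 in the second, and Hnrnpc 0.38 and 0.34. In the fit that blocks on the slide set, 0 members and 0 of all genes passed, and 9 members and 979 genes had an unadjusted p under 0.05.

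Other genes of splicing, from lists outside the 8 families, had median differences of lymphedema minus normal between that of all genes and that of the members. Of 65 other spliceosome proteins 0 passed in lymphedema against normal, with a median of 0.12. Of 54 other splicing regulators 1 passed, Celf2, a regulator known from muscle, brain and T cells, which was higher by 0.95 (adjusted p = 0.0275 from limma), with −2.45, −2.25 and −2.32 in lymphedema and −3.60, −3.31 and −2.98 in normal skin. The median of these regulators was 0.17. In normal skin the median level of the other spliceosome proteins was −0.12, near the −0.097 of all genes, with 66.2% below 0 against 55.1%. For the other splicing regulators it was −0.48, with 72.2% below 0.

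Markers of other cell types moved in the same comparison. Of 13 macrophage and monocyte genes 6 passed as higher, with a median of 0.98 and array medians of the level of 0.14 to 0.56 in lymphedema, −0.51 to 0.20 in sham and −0.56 to −0.33 in normal skin. Of 8 neutrophil genes 4 passed as higher, with a median of 0.97 and array medians of 1.33 to 1.72 in lymphedema, −0.81 to 1.04 in sham and −1.41 to −1.12 in normal skin. Of 25 proliferation genes 2 passed as higher, with a median of 0.29 and array medians of −0.81 to −0.48 in lymphedema, −1.03 to −0.87 in sham and −1.16 to −0.98 in normal skin. Of 6 endothelial genes 2 passed as higher, of 11 fibroblast genes 0 passed with a median of 0.66, and of 10 keratinocyte genes 0 passed with a median of 0.057. Their part in the members' differences was not tested.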

How the data were processed

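Tail skin RNA of 9 pools was hybridized against embryo RNA on 2-color cDNA arrays. The authors extracted features with GenePix and processed them in Expressionist with background subtraction and dye normalization. The deposited values are log2 ratios, 1 per feature and array, with the base read as 2, and the centering is not given in the sources used here. Their filter on reference signal and their imputation are not in the table, which holds 42624 features and had 26 cells read as null. Probe names came from the platform annotation, with 20678 features named by 1 gene.

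The sign was turned, each array was centered on its median, and clones with a value on all 9 arrays were averaged, giving 8644 genes. The 9 arrays were grouped by the labels. The 3 states were compared in 1 fit with limma 3.58.1 (R 4.3.3), group as the only term, and Benjamini-Hochberg adjustment at 0.05 over all genes. Figures were drawn with matplotlib in Python. SAM was written anew, with 20 splits. Precision is limited by 3 pools per group.

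Members and lists were chosen with earlier results of these data known. Named genes were those past the threshold (or the 3 smallest p) in each comparison, the 5 highest and lowest levels in normal skin, the smallest p of each family, and members with clones of opposite sign past the threshold. The code was tested on simulated data. Alternatives were no centering, quantile normalization, scaling, a value on 2 of 3 arrays, 1 clone per gene, the 2 groups only, SAM, replicate and slide set blocks, each array left out and, added later, local centering.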

Additional observations from a re-analysis of the deposited data

How the results depend on the processing

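No member passed as lower under any alternative, and none passed in sham against normal or lymphedema against sham skin or over the 3 states in the alternatives run for them. The number of members higher in lymphedema than in normal skin, 1 as reported, was 0 with no centering, with 1 clone per gene and with the replicate block or the slide set as a block, 2 with quantile normalization or scaling to 1 median absolute deviation, 3 with local centering, 6 with arrays of the 2 groups only and 14 by SAM. With each array left out it ran from 0 to 4. These counts alone do not set the members apart, since a setting may also call more of all genes. By SAM the 14 members were 15.6%, against 16.4% of all genes. Local centering passed 4.32% of all genes as higher, and the slide set fit passed 0 of them. For the remaining alternatives the share of all genes is not given here, so their counts were not compared with it. The replicate number was tried as a block, although the labels give no more than a number. For numbers 1, 2 and 3, deviations of same-numbered arrays had correlations of −0.19, 0.048 and −0.24 between lymphedema and normal skin. The values were −0.0042, 0.090 and −0.18 between sham and normal skin, and −0.049, 0.078 and 0.28 between lymphedema and sham skin. Differently numbered arrays were not compared in this way, so these values cannot settle whether the numbers mark pairs. With this block the Lsm10 call had an adjusted p of 0.0657 from limma. Lsm10 lost its call also with no centering (0.0519) and with 1 clone per gene (0.138). The median difference of the members, 0.17, was 0.090 with the slide set as a block, 0.11 with no centering and 0.11 with quantile normalization. For sham against normal it was 0.073 as reported, 0.00063 with the slide set as a block, 0.041 with local centering and 0.039 with 1 clone per gene. For lymphedema against sham it was 0.11 as reported, 0.072 with no centering and 0.062 with quantile normalization. The median level of the members in normal skin, −0.40, was −0.31 with no centering, −0.31 with quantile normalization and −0.56 with 1 clone per gene. Signs turned for Hnrnpa2b1, at −0.084 with 1 clone per gene, and for Hnrnpu, which was −0.013 as reported and ran from −0.070 to 0.018 with each array left out, above 0 without normal 2 (0.013) and without normal 3. The causes were not tested. Intensities over background were not used here, and the 3 pools of a group limit the precision.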
